A study of Mus musculus with 2 samples.

Results

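The extracellular matrix is the protein scaffold that stromal cells lay down around themselves and that accumulates as scar in liver fibrosis. The genes described here are 32 genes of that scaffold, chosen by their symbols, of the 27998 genes listed in the deposited tables. All 32 were found, each under 1 gene identifier. They comprise fibril collagens (Col1a1, Col1a2, Col3a1, Col5a1, Col5a2), beaded-filament collagens (Col6a1, Col6a2, Col6a3), basement membrane genes (Col4a1, Col4a2, Col15a1, Col18a1, Lama4, Lamb1, Lamc1, Nid1, Hspg2) and elastic fibre genes (Eln, Fbln1, Fbln5). The others are small proteoglycans (Lum, Bgn, Dcn), matricellular and adhesive proteins (Fn1, Sparc, Postn, Thbs2, Igfbp7, Mgp) and matrix enzymes (Lox, Loxl2, Mmp2).

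Liver cells other than hepatocytes were profiled by droplet single-cell RNA sequencing from the 3′ ends of transcripts, with 1 library from PKM2FL/FL mice and 1 library from PKM2ΔMAC mice. Both genotypes had been kept for 8 weeks on an MCD diet, which lacks methionine and choline and produces a fatty, inflamed and scarring liver. PKM2FL/FL mice carry a floxed allele of the pyruvate kinase isoform PKM2, and PKM2ΔMAC names its deletion in macrophages. The series title places the question in the fibrosis of steatohepatitis. The promoter that drives the deletion, the age and sex of the animals and the number of mice behind each library were not stated in the labels. With 1 library per genotype no test between genotypes was possible, so every difference describes these 2 libraries.

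Fibril collagens give scar its tensile strength and are made in the liver chiefly by stellate cells, portal fibroblasts and other mesenchymal cells. Basement membrane proteins (type IV collagen, laminins, nidogen, perlecan) form thin sheets under endothelium, around smooth muscle and beneath the mesothelium, the cell layer that covers the liver surface. Small proteoglycans such as decorin bind collagen fibrils and growth factors, and matricellular proteins regulate how cells and matrix interact without building the scaffold themselves.

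Cells were assigned to classes by marker genes, none of which is among the 32. A cell needed at least 3 markers of a class and more than of any other, and a stromal cell could hold at most 1 UMI of Ptprc, the pan-leukocyte CD45 gene. UMIs are unique molecular identifiers, counted once per captured transcript. The smooth muscle-like gate held 10 PKM2FL/FL and 39 PKM2ΔMAC cells, the mesothelial-like gate 27 and 42, the endothelial-like gate 58 and 108, and the macrophage-like gate 141 and 118. A stellate or fibroblast-like gate of 8 and 27 cells was added because it is the classical source of liver matrix. The smooth muscle, mesothelial and endothelial gates showed UMIs of all their own markers in both libraries (12 of 12, 10 of 10 and 12 of 12), as did the macrophage gate (14 of 14). In the stellate or fibroblast gate the PKM2FL/FL library had UMIs of 6 of 11 markers, with Lrat, Reln, Colec11, Hgf and Ngfr at 0, while the PKM2ΔMAC library had all 11. That gate therefore differs in make-up between the libraries, and genotype and make-up cannot be told apart there.

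In all, 9510 PKM2FL/FL cells with 49851626 UMIs and 8549 PKM2ΔMAC cells with 40446693 UMIs were kept, and 17 cell barcodes occurred in both libraries. Pkm, the gene that encodes PKM2, gave 162 UMIs in the macrophage gate of the PKM2FL/FL library (430 CPM, UMIs per 1000000 UMIs of the gate) and 29 in that of the PKM2ΔMAC library (134 CPM). Which exons were deleted is not given in the sources used here, and a 3′ tag does not show which exons a transcript holds, so these counts are no check of the deletion.

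Levels are given as CPM, UMIs of a gene per 1000000 UMIs of the gate. They carry exact Poisson intervals, and ratios carry exact conditional intervals, all at 95% and covering counting error only. Tags from the 3′ end are not scaled to gene length, so levels are compared within a gene across gates or libraries and not between genes.

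Several of the 32 genes lie next to one another in the genome (build mm10, GENCODE M21 annotation). Col3a1 (chromosome 1, 45311538 to 45349706, plus strand) neighbours Col5a2 (45374321 to 45503282, minus strand). Dcn (chromosome 10, 97479609 to 97518143) and Lum (97565128 to 97572703), both small leucine-rich proteoglycans, follow each other on the plus strand. Col4a1 (chromosome 8, 11198423 to 11312826, minus strand) and Col4a2 (11312805 to 11449287, plus strand) run head to head, with 22 bases of their 5′ ends in common. The last 500 bases of each gene, where 3′ tags fall, shared no exon with another gene on the same strand for any of the 32 genes. For 1 gene, Igfbp7, they overlapped an exon on the other strand, and whether the counting used strand is not given in the sources used here.

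The 250 bases before the start of Col3a1 and of Igfbp7 are shown because these genes lie at opposite ends of the patterns described below. Col3a1 had no UMI in the endothelial gate of either library, whereas Igfbp7 was detected in every stromal gate. Both windows come from RefSeq (GRCm38.p6), read 5′ to 3′ on the gene's strand, and hold no exon annotated in GENCODE M21. Capitals mark matches on either strand to the TATA box letters TATAAA, the GC box letters GGGCGG or the letters CCAAT. The Col3a1 window (chr1:45311288-45311537, plus strand) is 35.2% G or C with 0 CG pairs. The Igfbp7 window (chr5:77408046-77408295, minus strand) is 74.0% G or C with 26 CG pairs.
Col3a1: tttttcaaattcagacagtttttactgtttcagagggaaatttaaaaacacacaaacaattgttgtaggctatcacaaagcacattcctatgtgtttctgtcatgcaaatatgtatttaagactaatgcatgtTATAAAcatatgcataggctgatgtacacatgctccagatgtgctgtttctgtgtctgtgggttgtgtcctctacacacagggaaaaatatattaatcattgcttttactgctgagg
Igfbp7: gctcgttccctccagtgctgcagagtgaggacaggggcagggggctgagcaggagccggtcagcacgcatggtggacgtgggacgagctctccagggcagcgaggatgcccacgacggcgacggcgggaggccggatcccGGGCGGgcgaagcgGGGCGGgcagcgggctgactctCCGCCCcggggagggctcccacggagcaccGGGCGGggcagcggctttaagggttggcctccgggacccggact
The Col3a1 window has 1 TATAAA match and none of the other motifs, and the Igfbp7 window has 4 GGGCGG matches and none of the others. Of 32851 RefSeq windows of this length, 12.4% hold TATAAA, 32.7% hold GGGCGG and 33.8% hold CCAAT. Among the 25 windows found for 20 of the 32 genes (several genes have more than 1 start), TATAAA occurred in 3, GGGCGG in 13 and CCAAT in 8. These matches are descriptions of the letters and not of factor binding.

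Stromal cells were few and held most of the matrix transcripts. The 4 stromal gates contained 103 of the PKM2FL/FL cells (1.08%) and 216 of the PKM2ΔMAC cells (2.53%), yet 55.3% and 70.0% of all UMIs of the 32 genes. Of the 32 genes, 28 in the PKM2FL/FL library and 29 in the PKM2ΔMAC library had at least 50% of their UMIs in these gates. The median over the 32 genes was 78.5% and 79.9%. In both libraries Fn1, Lamc1 and Nid1 had under 50% there, and Col18a1 had 37.3% there in the PKM2FL/FL library and 75.5% in the PKM2ΔMAC library. These shares depend on how many cells of each kind were recovered: fewer cells of a type and less RNA per cell cannot be told apart in them.

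**Figure D1:**
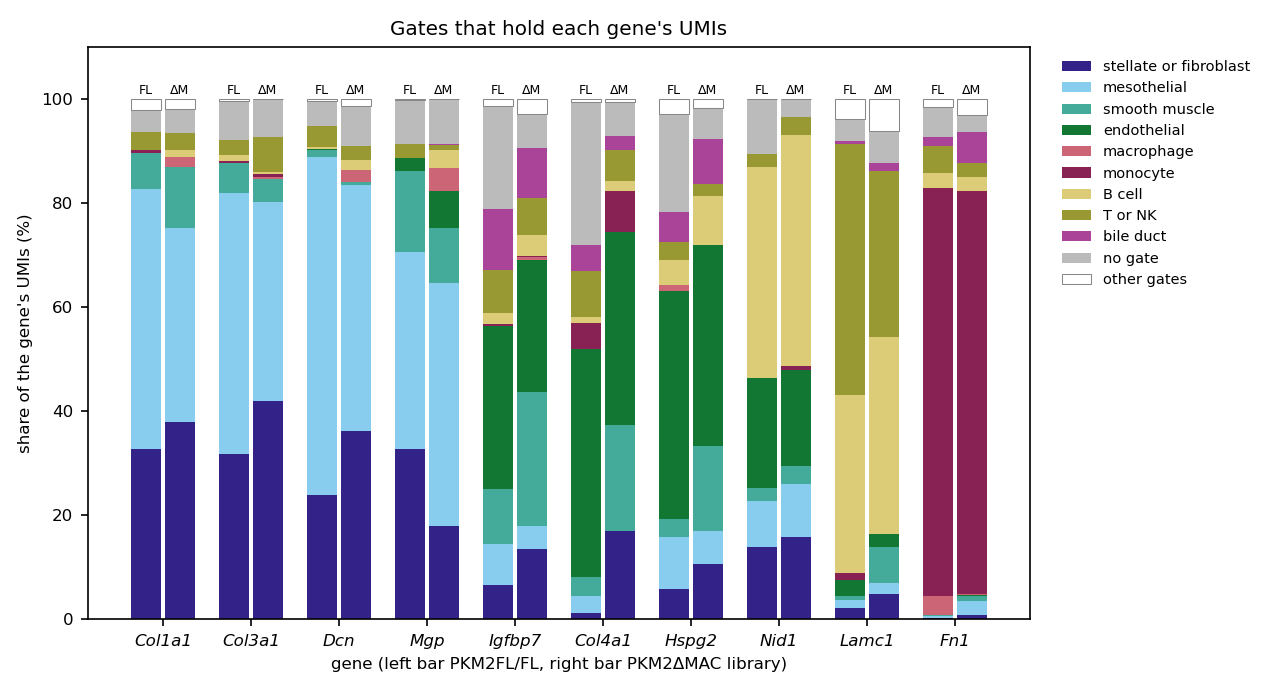
Share of each gene's UMIs (y axis, %) that lay in each marker gate, for 10 of the 32 genes (x axis), with the PKM2FL/FL library in the left bar and the PKM2ΔMAC library in the right bar of each pair. Fibril collagens, Dcn and Mgp lay mostly in stellate or fibroblast and mesothelial gates, Col4a1 and Hspg2 most in the endothelial gate, and Fn1 in monocytes (78.4% and 77.5%).

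Per cell, the stellate or fibroblast gate gave the largest part of its transcripts to the 32 genes, with a median of 4.45% of a cell's UMIs in the PKM2FL/FL and 3.13% in the PKM2ΔMAC library. Mesothelial-like cells followed with medians of 2.28% and 2.45%. Smooth muscle-like cells had 0.932% and 0.589%, and endothelial-like cells 0.565% and 0.654%. In the macrophage gate the median cell had none, and 128 of 141 and 109 of 118 cells were without a single UMI of any of the 32 genes. By summed level the PKM2FL/FL gates ran in the order stellate or fibroblast, mesothelial, smooth muscle, endothelial and macrophage (45167, 22890, 14393, 5578 and 395 CPM). In the PKM2ΔMAC library smooth muscle and endothelial gates changed places, at 6398 and 6823 CPM, with overlapping counting intervals (6014 to 6800 and 6411 to 7254).

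**Figure D2:**
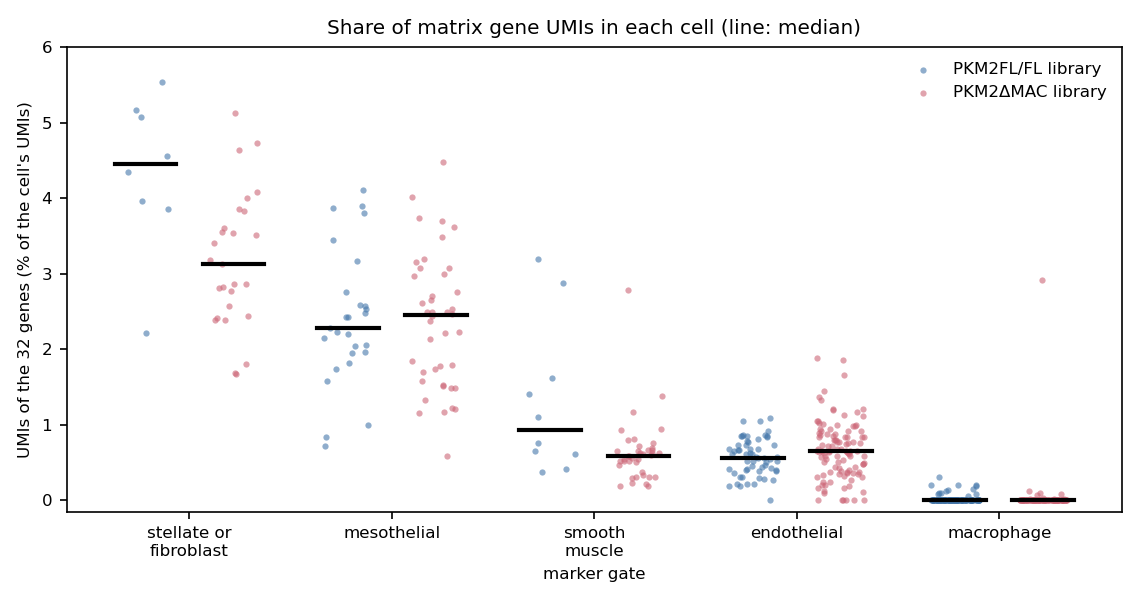
UMIs of the 32 genes as a percentage of each cell's UMIs (y axis) in 5 marker gates (x axis); each point is a cell, blue for PKM2FL/FL and red for PKM2ΔMAC, and lines are medians. A single PKM2ΔMAC cell of the macrophage gate stands at 2.92%, while the median macrophage-like cell of either library is at 0.

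B cells, which are not a known source of decorin, served as a comparison for such counts. Dcn was found there in 22 of 2181 PKM2FL/FL cells (1.01%) and 21 of 2414 PKM2ΔMAC cells (0.870%), at median depths of 3165 and 2731 UMIs. Of 81 Dcn UMIs in the PKM2ΔMAC B cells, 45 lay in 1 cell. Empty droplets were not examined, so how much of these counts is free RNA was not tested. By comparison all 27 and all 42 mesothelial-like cells held Dcn, at median depths of 3429 and 3166 UMIs. Igfbp7 was found in 0.825% and 2.28% of B cells, and Col1a1 in 0 of 2181 and 2 of 2414. The count of 0 allows up to 0.169% of cells with a UMI (upper exact bound) and does not limit the share of cells that express the gene.

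Fibril collagens were found in the mesenchymal gates and, apart from 1 UMI of Col5a2, not in the endothelial gate. Col1a1, a chain of type I collagen, had 47 and 58 UMIs in the stellate or fibroblast gate, 72 and 57 in the mesothelial gate and 10 and 18 in the smooth muscle gate, in the PKM2FL/FL and PKM2ΔMAC libraries. Its level was 1043 and 601 CPM in the stellate or fibroblast gate, 406 and 416 in the mesothelial gate and 276 and 111 in the smooth muscle gate. Col1a1, Col1a2 and Col3a1 each had 0 UMIs among 58 and 108 endothelial-like cells, where 3 counts of the gate's total would be 16.6 and 20 CPM. Col1a2, the partner chain of Col1a1, gave 580 and 869 CPM in mesothelial-like cells, and Col3a1 687 and 577. In the stellate or fibroblast gate Col1a2 had 111 and 97 UMIs and Col3a1 77 and 87, of 45077 and 96503 UMIs. These were higher levels than in mesothelial-like cells in both libraries. The minor fibril chains Col5a1 and Col5a2 were sparse, with at most 22 UMIs in any of the 5 gates of a library. Col6a1, Col6a2 and Col6a3, whose chains assemble into beaded filaments at the cell surface, had 29, 12 and 4 UMIs in PKM2FL/FL mesothelial-like cells and 24, 8 and 9 in PKM2ΔMAC ones. The stellate or fibroblast gate had 19, 13 and 6 UMIs in PKM2FL/FL and 30, 12 and 13 in PKM2ΔMAC. All 3 genes thus stood at higher levels there than in mesothelial-like cells in both libraries. In PKM2ΔMAC smooth muscle-like cells Col6a3 had 18 UMIs. In endothelial-like cells the 3 genes together had a single UMI, of Col6a3.

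Basement membrane genes did not share 1 source. Col4a1, an alpha chain of type IV collagen, had 70 and 57 UMIs in the endothelial gate (388 and 380 CPM) and 6 and 31 in the smooth muscle gate (165 and 192 CPM). Mesothelial-like cells had 5 and 0. Col4a2 followed it, with 35 and 27 UMIs in endothelial-like cells and 0 and 1 in mesothelial-like cells. Hspg2, which encodes the heparan sulfate proteoglycan perlecan, stood at 416 and 440 CPM in the endothelial gate against 165 and 173 in the smooth muscle gate and 95.8 and 80.3 in the mesothelial gate. Col18a1, whose product carries the endostatin fragment, was highest in smooth muscle-like cells in both libraries, at 193 CPM (7 UMIs in 5 of 10 cells) and 408 (66 UMIs in 30 of 39 cells). Col15a1, another basement membrane zone collagen, had 13 and 9 UMIs in the stellate or fibroblast gate and at most 3 in each of the other 4 gates.

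Lamc1 and Nid1 had a large part of their UMIs in lymphocyte gates, which held far more cells than the stromal gates. Lama4, the alpha chain of endothelial laminin, had 16 and 12 UMIs in endothelial-like cells and 14 and 13 in mesothelial-like cells, and Lamb1 had at most 11 in any gate. Lamc1, the shared gamma chain, had 360 and 245 UMIs in all, of which B cells held 123 and 93 and T or NK cells 174 and 78. Its share of cells with a UMI was 5.37% and 3.73% of B cells and 2.98% and 1.74% of T or NK cells. Nid1, which links laminin to type IV collagen, had 50 and 65 UMIs in B cells (1.88% and 2.40% of cells) but 3 and 5 in T or NK cells (0.0565% and 0.121% of cells, at median depths of 5290 and 5273 UMIs). The Nid1 shares therefore differed between lymphocyte types, with the higher share in the shallower cells. Per UMI of the gate, both Lamc1 and Nid1 stood higher in the stellate or fibroblast gate than in either lymphocyte gate. That gate had 8 and 12 Lamc1 and 17 and 23 Nid1 UMIs, of 45077 and 96503 UMIs of all genes. The B cell gate held 7584786 and 7019731 UMIs of all genes and the T or NK gate 31497194 and 24063939.

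Of the elastic fibre genes and small proteoglycans, Fbln1, which encodes the matrix glycoprotein fibulin-1, reached 963 and 913 CPM in mesothelial-like cells and 2085 and 902 in the stellate or fibroblast gate, with 0 in endothelial-like cells. Eln, the elastin gene, had 11 and 12 UMIs in smooth muscle-like cells and 17 and 12 in mesothelial-like cells. It had 15 and 25 in the stellate or fibroblast gate and 3 and 11 in endothelial-like cells. Dcn, the decorin gene, supplied 2928 of the 4063 UMIs of the 32 genes in PKM2FL/FL mesothelial-like cells and 2083 of 3221 in PKM2ΔMAC ones. Its level there was 16496 and 15213 CPM, beside 23737 and 16507 in the stellate or fibroblast gate and 16.6 and 6.67 in the endothelial gate. Lum, a proteoglycan of the same family and a gene neighbour, differed from Dcn in its source: 40 and 83 UMIs in the stellate or fibroblast gate against 1 and 5 in the mesothelial gate. Bgn, the biglycan gene, was found in all 4 stromal gates, at 532 and 634 CPM in endothelial-like cells and 1572 and 532 in smooth muscle-like cells. Its level was highest in the stellate or fibroblast gate of both libraries, with 87 and 135 of 45077 and 96503 UMIs.

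**Figure D3:**
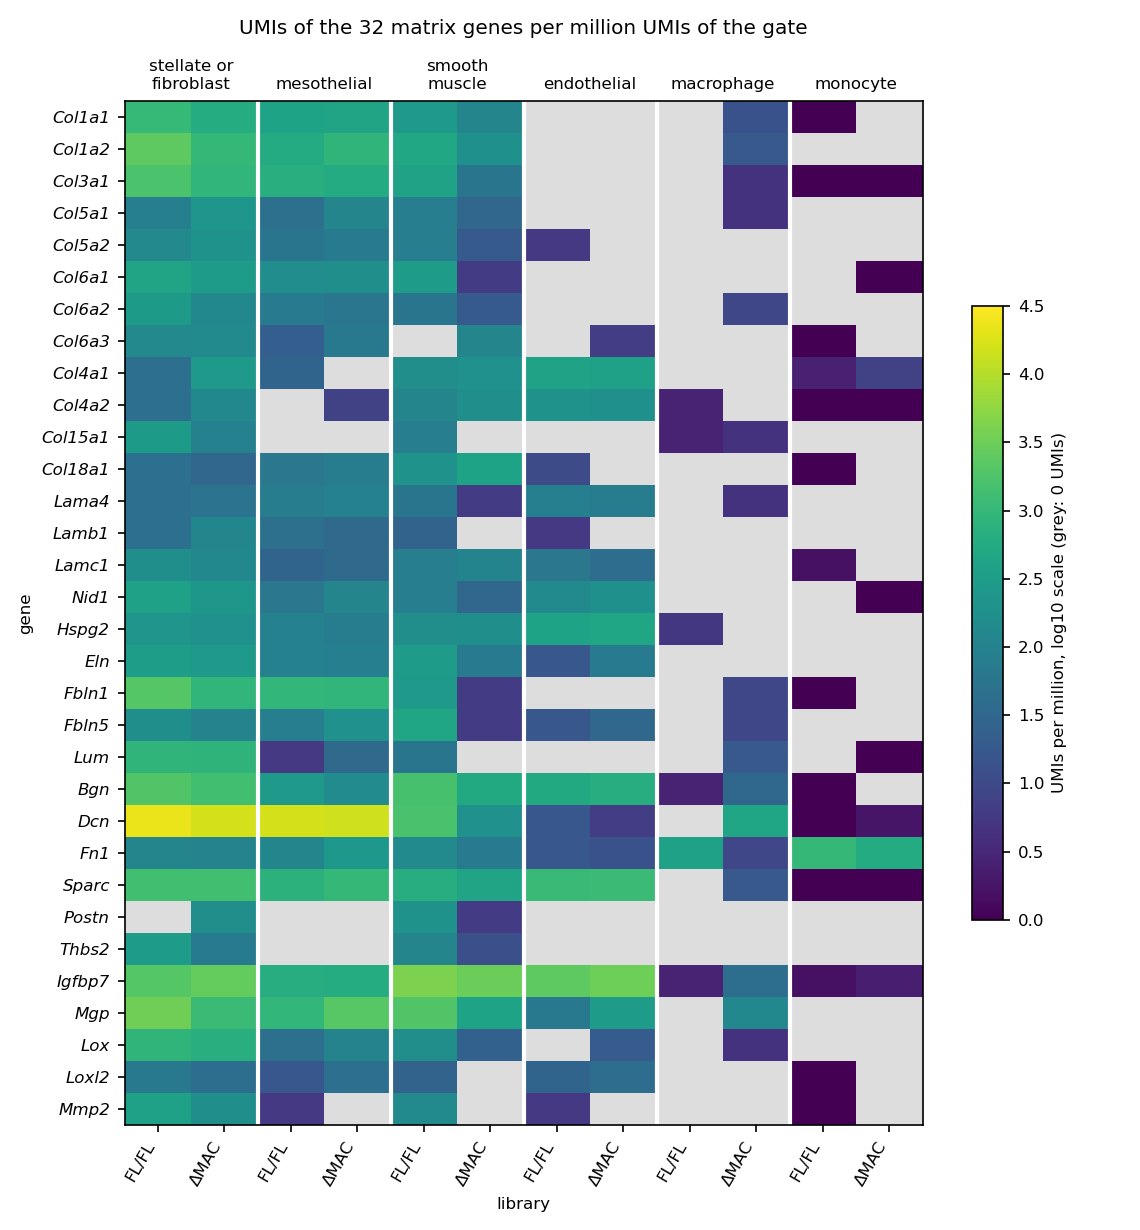
Level of each of the 32 genes (rows) in 6 marker gates and both libraries (columns), in CPM on a log10 colour scale; levels under 1 are drawn as 1 and grey marks 0 UMIs. Fibril collagens are grey in the endothelial gate except for 1 UMI of Col5a2, the PKM2FL/FL macrophage gate is mostly grey, and Fn1 stands out in monocytes (981 and 597 CPM).

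Among matricellular genes, Igfbp7, a secreted binding protein of the vessel wall, was detected in 10 of 10 and 38 of 39 smooth muscle-like cells and in 51 of 58 and 93 of 108 endothelial-like cells. It stood at 4163 and 3029 CPM in the smooth muscle gate and 2460 and 3248 in the endothelial gate. Sparc, a collagen-binding glycoprotein, was present in all 4 stromal gates, with 1108 and 1147 CPM in endothelial-like cells and 766 and 986 in mesothelial-like cells. Its level was highest in the stellate or fibroblast gate of both libraries, with 63 and 131 of 45077 and 96503 UMIs. Mgp, matrix Gla protein, an inhibitor of calcification, had 171 and 294 UMIs in mesothelial-like cells, where 26 of 27 and 42 of 42 cells held it. Postn and Thbs2 had 0 UMIs in the mesothelial and endothelial gates of both libraries. Postn had 7 and 1 UMIs in smooth muscle-like cells and 0 and 16 in the stellate or fibroblast gate. Thbs2 had 4 and 2 UMIs in smooth muscle-like cells and 14 and 7 in the stellate or fibroblast gate. Of the enzymes, Lox, which crosslinks collagen and elastin, had 39 and 63 UMIs in the stellate or fibroblast gate and 8 and 14 in the mesothelial gate. Mmp2, a gelatinase, had 17 and 17 in the stellate or fibroblast gate and at most 5 in each other stromal gate, and Loxl2 had at most 6 in any of the 5 gates.

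Fn1, the fibronectin gene, had most of its transcripts in monocytes. The monocyte-like gate (339 and 202 cells) held 3064 of 3907 Fn1 UMIs in the PKM2FL/FL library (78.4%) and 986 of 1272 in the PKM2ΔMAC library (77.5%), whereas the 4 stromal gates held 0.870% and 4.64%. Fn1 was found in 240 of 339 and 130 of 202 monocyte-like cells. Its level there was 981 CPM (947 to 1017) and 597 (560 to 636), a ratio of 0.608 (0.566 to 0.654), beside a median log2 ratio of -0.081 over all 8787 genes measured in that gate. Thinning each cell to 500 UMIs left Fn1 in 29.5% and 21.8% of monocyte-like cells. In the macrophage gate Fn1 had 143 UMIs in 10 PKM2FL/FL cells and 2 UMIs in 2 PKM2ΔMAC cells. Of these, 139 lay in 6 of the 21 PKM2FL/FL cells that carried Gpnmb or Trem2, genes of lipid-associated macrophages, and 1 in the 5 such PKM2ΔMAC cells. Kupffer-like cells, the resident macrophages of the liver, had 3 Fn1 UMIs in 110 cells and 1 in 107. The cells with Gpnmb or Trem2 supplied 187459 of 376862 UMIs of the PKM2FL/FL macrophage gate and 17051 of 217078 of the PKM2ΔMAC gate, and the part of that difference in the Fn1 counts was not tested.

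To see which gate held each gene's highest level, the smooth muscle, mesothelial, endothelial and macrophage gates were compared, and a gene was called where the highest level was at least 2-fold over the next in both libraries. Of 19 of the 32 genes with enough UMIs (at least 20 over the 4 gates in each library), mesothelial-like cells were highest for Fbln1 and Dcn, beside 3.77% of all measured genes called for that gate. Smooth muscle-like cells were highest for Col18a1 (2.14% of all genes), endothelial-like cells for Hspg2 (5.68%) and macrophage-like cells for none (5.27%). The other 15 measured genes had no gate 2-fold over the next in 1 or both libraries, or a different gate in each. Col1a1, Col1a2, Col3a1 and Col6a1 were highest in mesothelial-like cells of the PKM2ΔMAC library, with no such gate in the PKM2FL/FL library. In the PKM2FL/FL library only, Col4a1 was highest in endothelial-like cells, and Eln and Bgn in smooth muscle-like cells. Mgp was highest in smooth muscle-like cells of the PKM2FL/FL library and in mesothelial-like cells of the PKM2ΔMAC library. With the stellate or fibroblast gate added, that gate was highest for Col6a2, Lum and Lox of 24 measured (0.806% of all genes), Col18a1 kept its place in smooth muscle-like cells, and Fbln1, Dcn and Hspg2 were no longer called.

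Between the libraries, mesothelial-like cells had the same summed level within counting error, 22890 and 23525 CPM (ratio of PKM2ΔMAC over PKM2FL/FL 1.03, 0.981 to 1.08). Dcn, with a ratio of 0.922 (0.871 to 0.976), set that sum, and without Dcn and Igfbp7 the log2 ratio of the sum was 0.42. Of 21 genes measured there (at least 20 UMIs over both libraries), 5 were at least 2-fold higher in the PKM2ΔMAC library, Col5a1, Fbln5, Fn1, Mgp and Lox, beside 6.33% of all measured genes. None was 2-fold lower (6.54%). Bgn had the ratio 0.552 (0.310 to 0.949), from 47 and 20 UMIs, and passed 2-fold at 0.459 (0.249 to 0.813) without the cell richest in the 32 genes in each library. The median log2 ratio was 0.27 over the 21 genes and -0.0010 over all measured genes. Mgp stood at 963 and 2147 CPM, a ratio of 2.23 (1.84 to 2.71), and at 2.03 (1.66 to 2.50) without those cells. Fn1 had 21 UMIs in 9 of 27 cells and 35 in 20 of 42 cells, a ratio of 2.16 (1.22 to 3.91), and Fbln5 15 and 26 UMIs, a ratio of 2.25 (1.15 to 4.56). The intervals of Col5a1 (8 and 15 UMIs) and Lox (8 and 14 UMIs) included a ratio of 1. Col1a2 was 1.50-fold higher (1.14 to 1.97), whereas Col1a1 (1.03, 0.712 to 1.47) and Col3a1 (0.839, 0.624 to 1.12) had intervals that included 1. Of the PKM2FL/FL mesothelial UMIs of the 32 genes, 30.3% came from 2 cells, which held 32455 and 23986 UMIs in all. Without cells that held 3 or more markers of another class, 19 and 28 cells were left, and 1 gene in place of 5 was 2-fold higher.

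In endothelial-like cells the summed level was 5578 and 6823 CPM (ratio 1.22, 1.12 to 1.34). Of 9 measured genes, 1 was at least 2-fold higher in the PKM2ΔMAC library, Mgp (4.41% of all measured genes), and none was lower (6.17%). Mgp rested on few cells: 12 UMIs in 3 cells and 45 in 4 cells, 26 of them in 1 cell, and its log2 ratio of 2.17 was 0.61 when every cell had equal weight. Igfbp7 was 1.32-fold higher (1.16 to 1.51), from 444 and 487 UMIs. Ratios of Col4a1 (0.980, 0.679 to 1.41), Col4a2 (0.929, 0.541 to 1.58), Hspg2 (1.06, 0.749 to 1.49), Sparc (1.04, 0.839 to 1.28) and Bgn (1.19, 0.888 to 1.60) all had intervals that included 1. Macrophage markers summed to 1618 CPM in the PKM2FL/FL and 260 in the PKM2ΔMAC endothelial gate, and the median depth was 1506 and 900 UMIs per cell. The part of either in these ratios was not tested.

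Smooth muscle-like cells had lower levels in the PKM2ΔMAC library, but the PKM2FL/FL gate had only 10 cells. The summed level was 14393 and 6398 CPM (ratio 0.445, 0.400 to 0.495), from 522 and 1035 UMIs. Of 14 measured genes, 7 were at least 2-fold lower (Col1a1, Col1a2, Col3a1, Eln, Bgn, Dcn, Mgp), beside 7.07% of all measured genes, and 1 was higher, Col18a1 (17.7%). The median log2 ratio was -0.95 over the 14 genes and 0.098 over all measured genes. A single PKM2FL/FL cell held 190 of the 522 UMIs and the next 121, and these cells carried 2 and 6 markers of the stellate or fibroblast list. Stellate or fibroblast markers summed to 1599 CPM in the PKM2FL/FL gate, with 6 of 11 detected, and 451 in the PKM2ΔMAC gate, with 7 of 11. The gate's own smooth muscle markers moved the other way, from 19907 to 39568 CPM. Acta2, smooth muscle actin, had 175 and 1809 UMIs and Rgs5, a pericyte gene, 110 and 285. The gate thus differs in make-up between the libraries, and the part of either marker list in the difference was not tested. Without the cell richest in the 32 genes in each library the log2 ratio of the sum was -0.91 instead of -1.17, and without cells that held 3 or more markers of another class (8 and 35 cells left) 4 genes in place of 7 were 2-fold lower. Dcn had 58 UMIs in 3 PKM2FL/FL cells and 30 UMIs, all in 1 cell, in the PKM2ΔMAC library. Mgp had 70 UMIs, 61 of them in 1 cell, and 66 UMIs in 27 of 39 cells; its ratio of 0.211 (0.149 to 0.300) became 1.37 (0.681 to 3.13) without the richest cells. Spread over more cells was Bgn, with 57 UMIs in 9 of 10 cells and 86 in 29 of 39, a ratio of 0.338 (0.239 to 0.481), or 0.453 (0.294 to 0.712) without the richest cells. Col1a2, with 18 UMIs in 7 cells and 29 in 19, had a ratio of 0.361 (0.194 to 0.691), or 0.374 (0.191 to 0.770) without them. The basement membrane genes Col4a1 (1.16, 0.476 to 3.40), Col4a2 (1.57, 0.549 to 6.16) and Hspg2 (1.05, 0.425 to 3.09) had intervals that included 1, as did Col18a1 (2.11, 0.971 to 5.46).

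In the stellate or fibroblast gate the summed level was 45167 and 31201 CPM (ratio 0.691, 0.653 to 0.731), from 2036 UMIs of 8 cells and 3011 of 27. Of 23 measured genes, 7 were at least 2-fold lower in the PKM2ΔMAC library (7.77% of all measured genes). These were Col1a2, Col6a2, Col15a1, Fbln1, Thbs2, Mgp and Mmp2. Another 2 were higher, Col5a1 and Col4a1 (13%). Col5a1 had 4 and 22 UMIs (ratio 2.57, 0.873 to 10.3) and Col4a1 2 and 26 (6.07, 1.52 to 52.8). Both reached the minimum for a measured gene through the PKM2ΔMAC library alone. Its gate held 96503 UMIs of all genes, against 45077 in the PKM2FL/FL library. The count of higher genes therefore depends on that minimum, as does the share of all genes. Both ratios turned below 1 after thinning to 500 UMIs. Col1a2 stood at 2462 and 1005 CPM (ratio 0.408, 0.308 to 0.541), and Mgp at 3283 and 1171 (0.357, 0.277 to 0.459). Lum (0.969, 0.657 to 1.45) and Sparc (0.971, 0.714 to 1.33) had intervals that included 1. These ratios set 8 cells led by fibroblast markers beside 27 cells that also held stellate markers, with Reln at 0 and 37 UMIs and Lrat at 0 and 14.

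In the macrophage gate the summed level was 395 and 783 CPM (ratio 1.98, 1.58 to 2.48), but 162 of the 170 PKM2ΔMAC UMIs came from 1 cell. That cell held 5555 UMIs, 8 macrophage markers and 5 stellate or fibroblast markers, and it carried 96 of the 99 Dcn UMIs and all 27 Mgp UMIs of the gate. It counted as Kupffer-like. Of 3 measured genes, Dcn and Mgp were higher (6.5% of all measured genes), by 57.3-fold and 15.6-fold with 3 counts in place of 0 in the PKM2FL/FL library. Fn1 was lower (11.6%), with a ratio of 0.0243 (0.00291 to 0.0893). Without the richest cell in each library the log2 ratio of the sum turned from 0.99 to -2.95. The other Kupffer-like and macrophage-like cells held next to no collagen: Col1a1, Col1a2 and Col3a1 had 0 UMIs in both libraries once that cell was left out.

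Genes that process, cut, bind or signal through matrix were followed in 5 lists beside the 32 genes, counted with the same 2-fold rule. In mesothelial-like cells, where 6.33% of all measured genes were higher and 6.54% lower, 2 of 9 measured genes of collagen making and crosslinking were higher in the PKM2ΔMAC library and 0 lower: Ppib, a collagen-folding isomerase (51 and 88 UMIs, ratio 2.24, 1.57 to 3.22), and P4hb, a subunit of prolyl 4-hydroxylase (19 and 44 UMIs, ratio 3.0, 1.72 to 5.44). Of 11 measured TGF-beta pathway genes there, 4 were higher and 1 lower, with Cyr61 at 558 and 1629 CPM (ratio 2.92, 2.29 to 3.74) and Ctgf, a matricellular growth factor, at 3 and 19 UMIs (ratio 8.21, 2.42 to 43.3). Smad4, the shared signal transducer, was the lower one, with 22 and 5 UMIs. Lower calls also came from 1 of 7 proteases and inhibitors, Mmp14 (21 and 7 UMIs, ratio 0.432, 0.155 to 1.06), and 1 of 6 matrix receptors, Dag1 (29 and 10 UMIs, ratio 0.447, 0.194 to 0.944). None of the 12 measured genes of other core matrix was 2-fold apart in mesothelial-like cells.

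In smooth muscle-like cells the TGF-beta pathway had 3 genes higher and 2 lower of 7 measured, beside 17.7% of all measured genes higher and 7.07% lower. Thbs1, thrombospondin-1, an activator of latent TGF-beta, had 0 UMIs in the PKM2FL/FL and 175 in the PKM2ΔMAC gate, at least 13.1-fold higher against a floor of 3 counts, while Ctgf (9 and 12 UMIs, ratio 0.299, 0.116 to 0.803) and Cyr61 (21 and 44 UMIs, ratio 0.470, 0.273 to 0.832) were lower. Collagen-making genes Serpinh1, a collagen chaperone (2 and 34 UMIs, ratio 3.81, 0.977 to 32.7), and Tgm2, transglutaminase 2 (2 and 42 UMIs, ratio 4.71, 1.22 to 40.1), were higher, 2 of 3 measured. Of 10 measured genes of other core matrix, 2 were higher, Emilin1 (3 and 31 UMIs) and Lama5 (2 and 37 UMIs), and 0 lower. Of 4 measured proteases and inhibitors, 2 were higher and 0 lower, with Adamts1, a secreted protease, at 1020 and 2312 CPM (ratio 2.27, 1.61 to 3.27). Of 4 measured matrix receptors, 1 was higher and 0 lower. The PKM2FL/FL gate had 10 cells and differed in make-up, as given above, and the part of either in these counts was not tested. Thbs1, Serpinh1, Tgm2, Emilin1 and Lama5 reached the 20 UMIs of a measured gene through the PKM2ΔMAC library alone. Its gate held 161772 UMIs of all genes, against 36268 in the PKM2FL/FL library. The counts of higher genes among those measured therefore depend on that minimum, as do the shares of all genes. In endothelial-like cells, where 4.41% of all measured genes were higher and 6.17% lower, 1 of 7 measured matrix receptors was higher, Itgb3 (7 and 17 UMIs), and 1 lower, Dag1 (20 and 8 UMIs). Mmp14, 1 of 3 measured proteases and inhibitors (42 and 14 UMIs, ratio 0.401, 0.202 to 0.750), and Plod1, a collagen lysyl hydroxylase and 1 of 6 collagen-making genes (27 and 10 UMIs, ratio 0.446, 0.193 to 0.951), were lower. Among TGF-beta pathway genes 0 of 8 were 2-fold apart there.

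In the macrophage gate 3 of 4 measured proteases and inhibitors were lower in the PKM2ΔMAC library, beside 11.6% of all measured genes. Mmp14, a membrane-bound collagenase, had 60 and 5 UMIs (ratio 0.145, 0.0453 to 0.357), Mmp12, the macrophage elastase, 131 and 23 (0.305, 0.187 to 0.477), and Adam17 43 and 12. Of 7 measured TGF-beta pathway genes only Thbs1 was lower (47 and 1 UMIs), and of 6 measured matrix receptors only Sdc4, a heparan sulfate receptor (68 and 7 UMIs). Higher calls there (6.5% of all measured genes) were Ecm1, a secreted matrix protein (8 and 17 UMIs, ratio 3.69, 1.51 to 9.88), and Pcolce2, a procollagen processing enhancer (12 and 22 UMIs, ratio 3.18, 1.51 to 7.06). The unequal share of cells with Gpnmb or Trem2 given above moves with these counts, and its part in them was not tested. The PKM2ΔMAC macrophage gate also held the cell with stellate or fibroblast markers described above. The part of that cell in the Ecm1 and Pcolce2 counts was not tested. In the stellate or fibroblast gate 3 of 7 collagen-making genes were lower (7.77% of all measured genes) and 3 of 9 TGF-beta pathway genes higher (13%). Those higher were Bambi (7 and 32 UMIs), Bmp4 (4 and 21) and Thbs1 (2 and 22). All of them reached 20 UMIs through the PKM2ΔMAC library alone. Of 13 measured genes of other core matrix, 3 were higher and 3 lower. Ecm1 had 17 and 225 UMIs (377 and 2332 CPM, ratio 6.18, 3.78 to 10.8). Smoc2 (87 and 59 UMIs, ratio 0.317, 0.224 to 0.446) and Lama2 (17 and 8 UMIs, ratio 0.220, 0.0821 to 0.537) were lower. Pcolce, which aids procollagen processing, had 27 and 20 UMIs (ratio 0.346, 0.184 to 0.640). All of these counts come from cells of unlike make-up.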

How the data were processed

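Raw UMI counts per gene and cell barcode were deposited by the authors as 1 matrix per library, produced by Cell Ranger 6.0.0 (per the file headers) against mm10 (per the submitters' processing notes, which list Seurat 4.3.0 too). No barcode held fewer than 502 UMIs, so barcodes had been filtered before deposition.

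Barcodes below 300 detected genes or at 20% or more mitochondrial UMIs were dropped (64 of PKM2FL/FL, 72 of PKM2ΔMAC). Scrublet (scanpy 1.11.5, doublet rate 0.08), run per library, then removed 480 (4.80%) and 328 (3.69%) as doublets. Kept cells had a median of 4384 and 3716 UMIs. Free RNA was not subtracted. Cells were gated on 15 marker lists, 3 of whose symbols are not in the tables. Macrophage-like cells with at least 2 Kupffer markers counted as Kupffer-like. UMIs were summed per gate and library and scaled to 1000000. A gene with 20 or more UMIs in the 2 libraries together counted as measured, and a call means 2-fold apart. A gene could thus count as measured through the library where it was high. Where a library had 0 UMIs, 3 counts stood in and the ratio depends on that floor. The interval and ratio code was tested on simulated data. Intervals are Poisson, conditional or Clopper-Pearson, at 95%.

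The 32 genes, the marker lists and the 5 pathway lists were chosen with earlier results of these data known. All 32 genes are accounted for by role. From each pathway list and gate, genes named are among the 3 highest and 3 lowest measured ratios. Besides 12 other settings, a further 3 were chosen after seeing the data: leaving out cells with 3 or more markers of another class, adding the stellate or fibroblast gate to the highest-level comparison, and leaving out Dcn and Igfbp7. Scripts ran on Python 3.11.15 with pandas 2.3.3, scipy 1.17.1, numpy 2.4.6, matplotlib 3.10.9 and anndata 0.12.19.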

Additional observations from a re-analysis of the deposited data

Results flagged for a closer look

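For 3 of the 32 genes the ratio of the PKM2ΔMAC over the PKM2FL/FL library pointed in opposite directions in different gates, at least 2-fold each way. Whether the ratios of a gene differed between gates was not tested, since each rests on 1 library per genotype. Dcn had a ratio of 0.116 in the smooth muscle gate and of 57.3, with 3 counts in place of 0, in the macrophage gate. The first rests on 3 PKM2FL/FL cells and 1 PKM2ΔMAC cell, and the second on 1 PKM2ΔMAC cell with 96 of 99 UMIs. Fn1 had a ratio of 2.16 in the mesothelial gate, from 21 and 35 UMIs in 9 and 20 cells, and of 0.0243 in the macrophage gate, from 143 and 2 UMIs. Mgp had a ratio of 0.211 in the smooth muscle gate, against 2.23 in the mesothelial, 4.51 in the endothelial and 15.6, with 3 counts in place of 0, in the macrophage gate. In the stellate or fibroblast gate it was 0.357, and 0.359 without the cell richest in the 32 genes in each library. Of these, the mesothelial ratio of Mgp came from the most cells, 26 of 27 and 42 of 42. The smooth muscle ratio of Mgp turned above 1 without the richest cell of that gate in each library, and its macrophage ratio came from 27 UMIs of 1 cell.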

How the results depend on the processing

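No paired analysis was possible because there was 1 library per genotype and no replicate numbers. Of 251 alternative values of sums and counts, 194 stayed within their limits (the counting interval, or 1.5 times a count), 54 moved and 3 changed direction. Of 336 alternative values of single genes, 314 stayed, 18 moved and 4 changed direction. The cause was not tested except where a setting leaves out genes or cells by its own construction.

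The macrophage sum (log2 ratio 0.99) turned to -2.95 without the richest cell in each library, to -3.45 without cells that hold 3 or more markers of another class and to -0.46 without Dcn and Igfbp7, and was 1.35 with at least 4 markers. The smooth muscle sum (-1.17) was -0.94 with no Ptprc limit, -1.37 with doublet calls kept, -0.91 without the richest cell and -1.44 without Dcn and Igfbp7. The mesothelial sum (0.039) was -0.054 after thinning to 500 UMIs, -0.11 without cells with markers of another class and 0.42 without Dcn and Igfbp7. The endothelial sum (0.29) was 0.14 after thinning, and the stellate or fibroblast sum (-0.53) was -0.69 without Dcn and Igfbp7.

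After thinning to 500 UMIs, which leaves fewer genes measured, 0 genes were higher and 0 lower in smooth muscle, 1 higher in mesothelial, 0 higher in endothelial, 0 higher and 0 lower in macrophage, and 1 higher and 4 lower in stellate or fibroblast gates, and Col5a1 turned in mesothelial (-0.22) and stellate or fibroblast (-1.34) gates, as did Col4a1 in the latter (-0.17). With a minimum of 1 UMI per gene, 16 genes were lower in smooth muscle, and 8, 3, 7 and 5 higher in mesothelial, endothelial, macrophage and stellate or fibroblast gates. Without cells with markers of another class, 2 were higher and 4 lower in smooth muscle, 1 higher and 1 lower in mesothelial, 0 higher in macrophage, and 0 higher and 4 lower in stellate or fibroblast gates. Without the richest cell, 1 (Bgn) was lower in mesothelial and 0 higher in macrophage gates, and Mgp in smooth muscle turned to 0.46. Genes higher in smooth muscle numbered 0 with no Ptprc limit, 2 with doublet calls kept and 0 with median-ratio size factors. With every cell weighted equally, 0 were higher and 1 lower in the endothelial gate.

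Genes highest in smooth muscle numbered 2 with at least 2 markers, 0 after thinning, 0 without the richest cell, 3 with a minimum of 1 UMI and 0 without cells with markers of another class. For mesothelial they numbered 4 with no Ptprc limit, 1 after thinning, 4 without cells with markers of another class and 0 with the stellate or fibroblast gate added. For endothelial they numbered 2 with at least 4 markers, no Ptprc limit, at least 500 genes per cell, under 10% mitochondrial UMIs or without cells with markers of another class, and 0 with equal cell weights, after thinning or with the stellate or fibroblast gate added. Of the 32 genes, 18 in the smooth muscle, 11 in the mesothelial, 23 in the endothelial and 9 in the stellate or fibroblast gate had too few UMIs to be counted as measured.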

Other observations

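Outside the gates compared above, bile duct-like cells (9 PKM2FL/FL and 8 PKM2ΔMAC cells) also carried matrix transcripts. Fn1 stood at 488 and 503 CPM there (ratio 1.03, 0.739 to 1.44), with UMIs in 8 of 9 and 8 of 8 cells. Igfbp7 stood at 1116 and 1202 CPM, but 118 of 167 and 106 of 184 UMIs lay in 1 cell of each library. Col18a1 had 18 and 14 UMIs in this gate, Col4a1 8 and 4, Bgn 7 and 0 and Lama4 1 and 6. Cells that entered no gate held 8.49% and 6.93% of the UMIs of the 32 genes. In the B cell gate of the PKM2ΔMAC library, 45 of 81 Dcn UMIs and 10 of 22 Mgp UMIs lay in 1 cell for each gene, and the PKM2FL/FL B cell gate had at most 1 Dcn UMI per cell and 0 of Mgp.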
